A study of Ictidomys tridecemlineatus with 15 samples.

Results

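Müller glia were compared with late-stage primary retinal progenitor cells (RPCs) in the developing retina of the 13-lined ground squirrel (13LGS). The members were the cells that the deposited annotation assigns to these types, taken from every library of postnatal day 8 (P8) and day 12 (P12) that held at least 10 cells of both. A library is 1 run of the 10x 3′ single-cell RNA-seq assay on dissociated retina, and its cells share a suffix in their names. Of the 2 libraries at each day, named a and b here, 3 met the rule (P8a, P12a and P12b), with 741 Müller glia and 482 late-stage primary RPCs, 1223 of the 11233 cells in these libraries and of 53394 cells in the whole data set. Library P8b held 50 late-stage primary RPCs and 0 Müller glia, and was not part of the comparison. All libraries came from untreated whole retinas of captive-bred litters, dated with the day of birth as day 0. The retinas had been methanol-fixed or flash-frozen, and which library was prepared in which way is not given in the sources used here. Sex, the number of animals per library and their age beyond the day are also not given there, so the spread between libraries may be technical or biological.

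Müller glia are the principal glial cell of the retina. They span its whole thickness, supply and buffer the neurons, and are among the last cells that RPCs form. Primary RPCs divide and self-renew, whereas neurogenic RPCs are about to leave the cell cycle and become neurons. Müller glia keep the expression of many progenitor genes, and in some vertebrates they can return to a progenitor state after injury, so the pair of cell types is close in expression as well as in lineage. The comparison of both in the same library asks which part of the transcriptome separates a newly formed glial cell from the progenitor that remains beside it.

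The values were counts of unique molecular identifiers (UMIs), each of which marks 1 captured mRNA molecule. The gene names as held here are a list that is shorter than the count matrix and carries no row numbers, so that no name can be put to a row. Genes are therefore given as rows of the matrix, numbered from 1, and the identity of both cell types could not be checked against named marker genes. The types carry the names of the deposited annotation throughout. That annotation was made from clusters of these same cells, so the rows that set it are among the rows called below. The p-values of the main test set the difference between the annotated types within libraries against the spread of that difference between libraries. This spread was estimated from the trend over all rows, not from the row alone. The p-values are no test, independent of the annotation, that the types exist.

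Late-stage primary RPCs gave way to Müller glia between P4 and P21. At P4, 35.2% of cells were late-stage primary RPCs (1374 of 3908, 95% Wilson interval 33.7% to 36.7%) and 0 of 3908 cells were Müller glia, which allows a share of up to 0.0768%. In P8a, 332 of 3012 cells were late-stage primary RPCs (9.95% to 12.2%) and 3.12% were Müller glia (2.56% to 3.80%). In P12a the shares were 1.90% and 8.51%, and in P12b they were 1.74% and 7.18%. Only 7 late-stage primary RPCs remained among 5277 cells at P17, beside 350 Müller glia, and at P21 there were 194 Müller glia and no late-stage primary RPC among 5057 cells. Of the cells of both types together, Müller glia were 22.1% in P8a (18.4% to 26.2%), 81.8% in P12a (77.9% to 85.1%) and 80.5% in P12b (76.0% to 84.3%), so that the number of glia per progenitor was 0.283, 4.48 and 4.12. The P12 libraries lay close together and both far above P8a. Limits for 0 cells are 3 cells over the cells of the library, not Wilson bounds. The P8 libraries differed from each other in both types. In P8b, late-stage primary RPCs were 3.65% of cells (2.78% to 4.78%), and 0 of 1369 cells allows at most 0.219% of Müller glia. The intervals and limits cover counting error only.

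**Figure D1:**
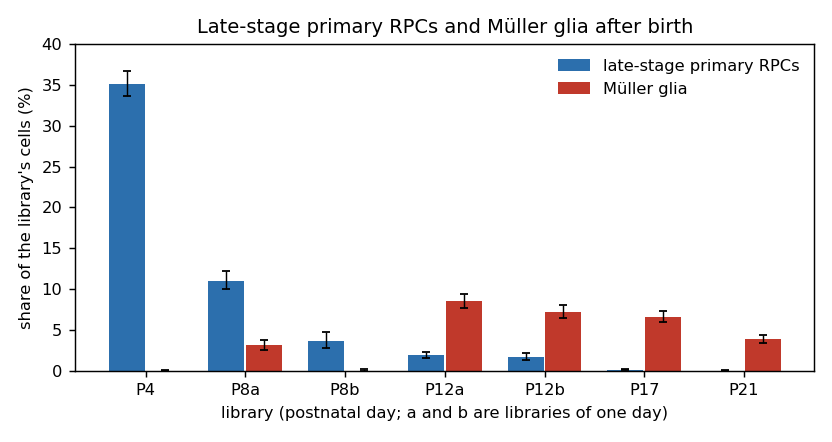
Share of each postnatal library's cells (vertical axis, percent) annotated as late-stage primary RPCs (blue) or Müller glia (red), for P4, P8a, P8b, P12a, P12b, P17 and P21, with 95% Wilson intervals as error bars. Late-stage primary RPCs outnumber Müller glia through P8, and Müller glia outnumber them from P12 on; P4 and P8b hold no Müller glia.

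Müller glia had more captured UMIs per cell at the median than late-stage primary RPCs in each library. The median Müller glial cell had 2946.5 UMIs in P8a, 2671 in P12a and 5197.5 in P12b, and the median late-stage primary RPC had 2387.5, 2199 and 4787 UMIs. Within a library the ratio was 1.23, 1.21 and 1.09, a mean log2 ratio of 0.23 ± 0.10 (SD, n = 3), and P12b was deeper than the other libraries in both types. The exact two-sided sign-flip permutation test over libraries gave p = 0.25, the smallest value that 3 libraries allow. Müller glia also had more different rows detected when each cell was thinned at random to 1000 UMIs. The medians were 626 against 610 rows in P8a, 625 against 611 in P12a and 610 against 589 in P12b, a mean difference of 17 ± 3.61 rows (SD, n = 3; exact permutation p = 0.25), after 0 to 4 cells with fewer UMIs were left out of each group. Without thinning, the mean difference was 217 rows.

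For the comparison of expression, the UMIs of all cells of a type were summed within each library. The 6 sums held 197745 (late-stage primary RPCs of P12a) to 1582940 UMIs (Müller glia of P12b). No cell barcode of the 2 types was shared between libraries, and at most 8 barcodes of all cells were. Levels are given in CPM, the UMIs of a row per 1e6 UMIs of its sum. Of 6889 rows with enough counts, 360 (5.23%) differed between Müller glia and late-stage primary RPCs at an adjusted p below 0.05 (edgeR quasi-likelihood test with the library as a block, Benjamini-Hochberg adjustment over all rows tested). They were 168 rows higher in Müller glia (2.44%) and 192 rows lower (2.79%). The median log2 fold change was 0.88 among the higher rows and −0.61 among the lower rows, against −0.01 over all rows tested. At least 2-fold differences were found in 68 of the higher and 49 of the lower rows. In the library-by-library values, 158 of the 168 higher rows and 184 of the 192 lower rows pointed the same way in all 3 libraries, against 34.1% of all rows tested, and 18 called rows did not. For 103 higher and 55 lower rows every sum of one type lay beyond every sum of the other, against 9.61% of all rows. These counts come from the same 6 sums that chose the rows. They describe the called rows and are no independent support for them. The test had 2 residual degrees of freedom and estimated the spread of a row entirely from the trend over all rows (infinite prior degrees of freedom), so that a row with unusual spread between libraries received the spread typical of its level. A call therefore did not require that the libraries agree. Row 25005 was called with a log2 fold change of −4.28. Its log2 ratios (1 CPM added) were −0.91 in P8a, −7.35 in P12a and 1.18 in P12b. The count of 360 rows rested on the libraries unequally: without P8a it was 389, without P12a 141 and without P12b 56.

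**Figure D2:**
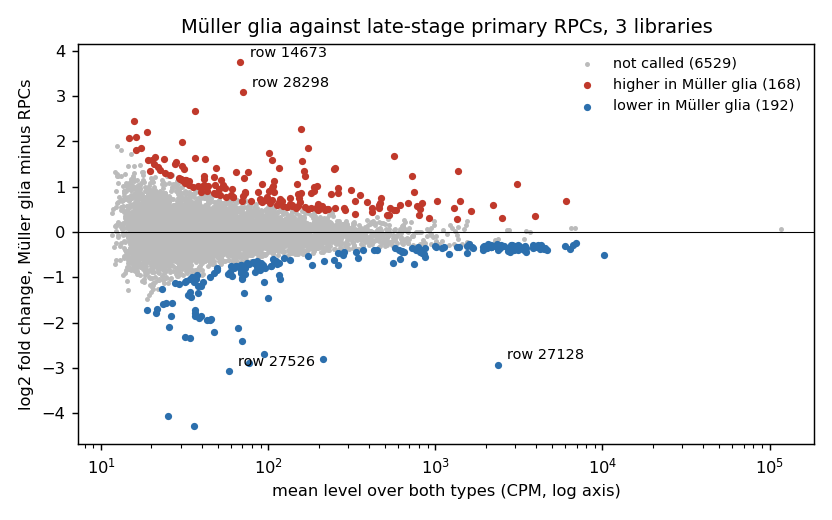
Log2 fold change of Müller glia minus late-stage primary RPCs (vertical axis) against the mean level of a row over both types (CPM, log axis), for the 6889 rows tested in P8a, P12a and P12b. Of the called rows, the 168 higher in Müller glia (red) spread over large fold changes at low and middle levels, and the 192 lower (blue) include a band of abundant rows with small fold changes.

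The rows higher and the rows lower in Müller glia lay at different levels of expression. The median level over both types was 108 CPM for the higher rows and 262 CPM for the lower rows, against 41.8 CPM over all rows tested. Rows of at least 1000 CPM made up 71 of the 192 lower rows (37.0%) and 11 of the 168 higher rows (6.55%), against 114 rows (1.65%) of all tested. The 71 abundant lower rows differed little in size, with a median log2 fold change of −0.33, and the median over all 114 abundant rows tested was −0.30. Among rows under 50 CPM, 48 were higher with a median of 1.29 and 42 lower with a median of −1.49. Depth set what could be called: the standard error (SE) of the log2 fold change had a median of 0.37 under 50 CPM and 0.16 at 100 CPM or more, 90 of 3937 rows were called in the first range and 205 of 1430 in the second, and 82 rows with an at least 2-fold difference were not called.

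The row that was raised most in Müller glia among those that the rule for naming rows admits was row 14673. It stood at 28.1 CPM (8 UMIs) in Müller glia of P8a, 226 CPM (235 UMIs) in P12a and 129 CPM (204 UMIs) in P12b, and at 2.19, 15.2 and 8.71 CPM (2, 3 and 3 UMIs) in the late-stage primary RPCs of the same libraries. Every Müller glial sum lay above every progenitor sum, and within the Müller glia P8a was the lowest. The log2 fold change was 3.75 (SE 0.36, edgeR adjusted p = 1.16e-22), with means of 128 ± 99.1 against 8.69 ± 6.49 CPM (SD, n = 3 libraries each). In single cells, a UMI of row 14673 was found in 6.38% of Müller glia in P8a, 34.7% in P12a and 38.4% in P12b. In P12a it was found in 3.70% of late-stage primary RPCs (3 of 81 cells) and 0.932% of amacrine cells, a neuron type, at median depths of 2671, 2199 and 2094 UMIs per cell in the order glia, progenitors and amacrine cells. The mean level of row 14673 in the other annotated types of these libraries was at most 9.24 CPM, in horizontal cells.

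Row 28298 was the next. Its level in Müller glia was 197 CPM in P8a, 112 in P12a and 58.8 in P12b, and in late-stage primary RPCs 15.3, 30.3 and 8.71 CPM (14, 6 and 3 UMIs). The groups did not overlap, and here P8a was the highest glial sum, the reverse of row 14673. The log2 fold change was 3.09 (SE 0.30, edgeR adjusted p = 3.6e-22), and it was 2.18 when P8a was left out. Of Müller glia, 35.1%, 23.7% and 27.8% had a UMI of this row in P8a, P12a and P12b, against 4.22%, 6.17% and 4.35% of late-stage primary RPCs and 0.140%, 0.274% and 0.560% of amacrine cells. The next highest mean among the other types, 11.8 CPM in photoreceptor precursors, lay below the progenitor mean of 18.1 CPM.

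Row 27526 had the largest fall in Müller glia under the same rule. It stood at 10.5 CPM in Müller glia of P8a, 13.5 in P12a and 17.1 in P12b (3, 14 and 27 UMIs), and at 47.0, 111 and 148 CPM in late-stage primary RPCs (43, 22 and 51 UMIs). All progenitor sums were above all glial sums, with P8a the lowest in both types. The log2 fold change was −3.07 (SE 0.28, edgeR adjusted p = 1.18e-25). Late-stage neurogenic RPCs had a higher mean than the primary ones, 186 CPM with a range of 125 to 219 CPM over the 3 libraries. The progenitor and neurogenic ranges overlapped between libraries, but within each of the 3 the neurogenic level was the higher. It was 125 CPM in P8a, 219 in P12a and 215 in P12b. In Müller glia the mean of 13.7 CPM was near the 13.2 CPM of amacrine cells.

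Row 27128 was the most abundant of the named rows. Müller glia had 650 CPM in P8a, 552 in P12a and 489 in P12b, and late-stage primary RPCs had 2297, 5780 and 4365 CPM. The lowest progenitor sum was more than the highest glial sum, and the glial values lay close together while the progenitor values at P12 were above that at P8. The log2 fold change was −2.93 (SE 0.09, edgeR adjusted p = 1.94e-215). That p-value rests on the shared estimate of spread: with a robust prior, which lets a row depart from the trend, the adjusted p of row 27128 was 0.256 at the same fold change. Late-stage neurogenic RPCs had 2750 CPM on average, photoreceptor precursors 850 CPM and retinal ganglion cells 83.3 CPM. Amacrine cells held UMIs of row 27128 in 49.3%, 25.5% and 19.7% of cells in P8a, P12a and P12b, against 67.0%, 45.5% and 56.7% of Müller glia and 84.9%, 91.4% and 95.7% of late-stage primary RPCs.

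**Figure D3:**
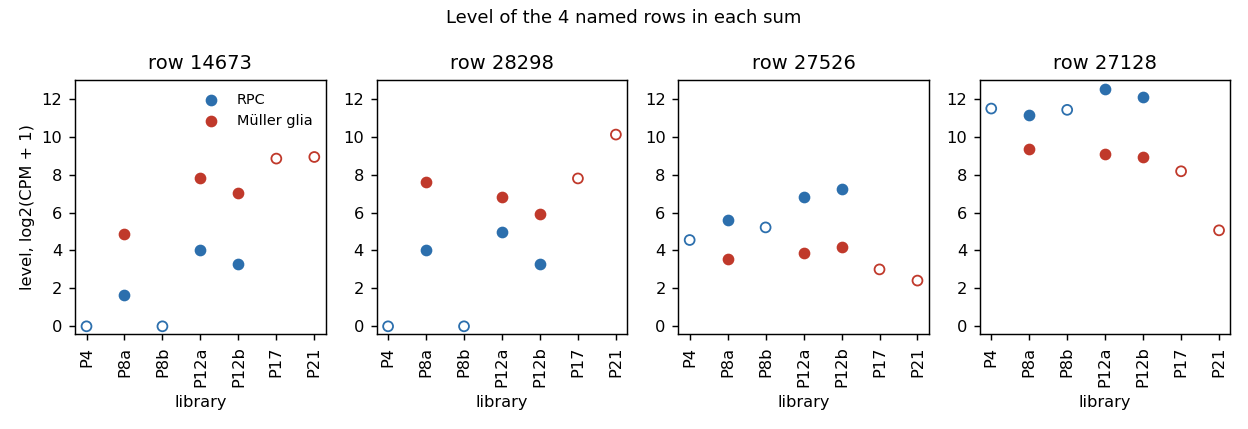
Level of rows 14673, 28298, 27526 and 27128 (vertical axis, log2(CPM + 1)) in the summed late-stage primary RPCs (blue) and Müller glia (red) of each postnatal library. Filled points are the 3 libraries compared and open points are libraries that hold enough cells of only one type; within P8a, P12a and P12b the red and blue points are separated for all 4 rows.

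The other annotated types of the same libraries show where the called rows are expressed. Of the 168 rows higher in Müller glia, 119 (70.8%) had their highest mean level in Müller glia among the 9 types with at least 10 cells in every one of the 3 libraries, against 14.0% of all rows tested. Retinal ganglion cells led in 21 of the 168 rows and late-stage primary RPCs in 0. The same sums chose these rows as higher in Müller glia than in late-stage primary RPCs. That choice favours a lead of the glia and leaves little room for one of these progenitors, so the share over all rows is not a matched background. Late-stage primary RPCs nevertheless lay above the other types in most of these rows: they exceeded late-stage neurogenic RPCs in 148 rows, bipolar cells in 135 and amacrine cells in 127, against 3882, 3164 and 3003 of the 6889 rows tested. The median log2 ratio of late-stage primary RPCs over amacrine cells was 1.73 in the 168 rows, and that of Müller glia over amacrine cells 2.90 (each computed after 1 CPM was added). By these medians the progenitors stood between the glia and the amacrine cells, but their place below the glia was set by the choice of rows.

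The rows lower in Müller glia were set against the other types in the same way. Of these 192 rows, 109 (56.8%) had their highest mean in late-stage primary RPCs and 40 (20.8%) in late-stage neurogenic RPCs, against 9.54% and 6.02% of all rows tested. Here too the same sums chose the rows. That choice favours a lead of late-stage primary RPCs and lowers the counts of rows in which Müller glia exceed another type. Müller glia were above late-stage neurogenic RPCs in 20 of the 192 rows (10.4%, against 56.7% of all rows tested), above photoreceptor precursors in 79 (41.1%, against 46.3%) and above cones in 87 (45.3%, against 43.6%). They were above bipolar cells in 121 (63.0%, against 47.4%), amacrine cells in 125 (65.1%, against 44.6%), horizontal cells in 134 (69.8%, against 45.6%) and retinal ganglion cells in 146 (76.0%, against 52.4%). Here the median log2 ratio over amacrine cells was 0.25 for Müller glia and 0.59 for late-stage primary RPCs.

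The summed share of UMIs gives the same sets a size. The 168 higher rows took 6.05% of the UMIs of Müller glia in P8a, 7.85% in P12a and 6.11% in P12b, and 4.05%, 4.48% and 3.42% of those of late-stage primary RPCs. In the other types of these libraries they took 1.22% (horizontal cells, P12b) to 2.59% (photoreceptor precursors, P8a). The 192 lower rows took 23.9%, 15.9% and 23.2% of the UMIs of Müller glia and 28.0%, 21.3% and 29.3% of those of late-stage primary RPCs. These shares describe the sums that chose the rows. P12a had lower shares of the second set than P8a and P12b in both types, and also in the other types compared. In amacrine cells the shares were 20.5% in P8a, 13.1% in P12a and 16.8% in P12b. The most abundant row of the matrix, row 17000, took 15.0% and 14.1% of UMIs of P12a in Müller glia and late-stage primary RPCs, against 8.36% to 11.8% in the other 4 sums. Whether the library's share of row 17000 bears on the called rows was not tested.

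Libraries that did not choose the rows hold further Müller glia or late-stage primary RPCs. The 168 rows took 11.9% of the UMIs of Müller glia at P17 (350 cells) and 15.8% at P21 (194 cells), both above the 3 sums of the younger glia. In late-stage primary RPCs they took 2.10% at embryonic day 26 (42 cells of 1 library), 2.77% at P4 (1374 cells) and 2.40% in P8b (50 cells), all below the 3 progenitor sums of the libraries that held Müller glia. The 2 P8 libraries therefore differed, 4.05% in P8a against 2.40% in P8b. The other types of P8b took 1.58% to 2.43%, and those of P8a 1.56% to 2.59%, nearly the same range. The 192 lower rows took 12.6% of the UMIs of Müller glia at P17 and 8.17% at P21, below all 3 younger glial sums, and 27.3%, 23.6% and 25.5% of those of late-stage primary RPCs at embryonic day 26, P4 and in P8b. In amacrine cells the lower rows took 20.5% at P4 and 9.41% at P21, a fall in the same direction as in the glia, and the higher rows 1.44% to 2.53% in the 7 libraries from P4 to P21.

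**Figure D4:**
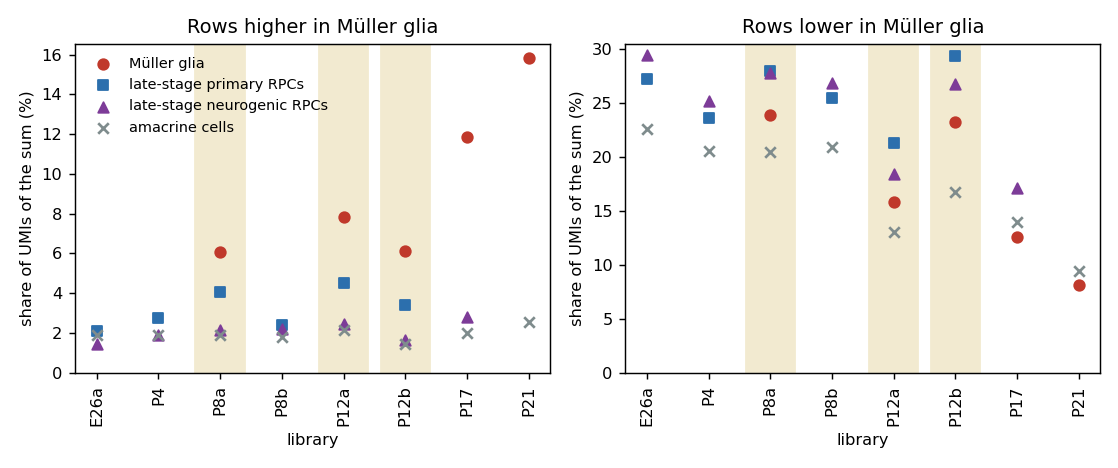
Share of a sum's UMIs (vertical axes, percent) in the 168 rows higher (left) and the 192 rows lower (right) in Müller glia, for Müller glia, late-stage primary RPCs, late-stage neurogenic RPCs and amacrine cells of each library from embryonic day 26 (E26a) to P21. Shaded libraries chose the rows; among the others the left panel reaches 15.8% in P21 glia and stays at 2.10% to 2.77% in late-stage primary RPCs.

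A fit of Müller glia at P17 and P21 against late-stage primary RPCs at P4 and in P8b used none of these 6 sums. In it, type and age cannot be told apart, and the annotation was again made over all libraries together. Of 9052 rows tested there, 7.59% were called higher and 7.10% lower in Müller glia (edgeR quasi-likelihood test, adjusted p below 0.05). Among the 168 rows, 167 were tested, 160 were higher in Müller glia, 114 (68.3%) were called higher and 0 called lower. Among the 192 rows, 191 were tested, 168 were lower, 96 (50.3%) were called lower and 3 (1.57%) called higher. The median log2 fold changes were 2.0 and −1.17, against −0.00 over all rows tested in both fits. Row 14673 stood at 458 CPM at P17 and 486 CPM at P21 in Müller glia and at 0 UMIs in the late-stage primary RPCs of both P4 and P8b, at least 429-fold higher in the pooled glia (against 3 UMIs over the pooled progenitors). Row 28298 stood at 221 and 1103 CPM and again at 0 UMIs in these progenitors, at least 404-fold higher. Both rows thus had UMIs in the progenitors only of the libraries that also held Müller glia, among these 5 libraries. Of amacrine cells, 0 of 1263 had a UMI of row 14673 at P4 and 0.317% in P8b, against 0.140% to 0.980% in P8a, P12a and P12b, and the part of glial RNA from outside the cell in the progenitor values was not tested. Row 27526 stood at 7.0 and 4.32 CPM in the older glia against 22.4 and 36.1 CPM (edgeR adjusted p = 0.0465). Row 27128 was lower in the older glia, at 288 CPM at P17 and 32.4 CPM at P21 (1 library each), against 2856 and 2725 CPM in the progenitors of P4 and P8b (edgeR adjusted p = 0.00172). The fall was not particular to the glia. From P12a and P12b to P21, row 27128 went from 236 and 123 to 25.1 CPM in bipolar cells. In cones it went from 389 and 205 to 32.4 CPM, and in amacrine cells from 130 and 58.2 to 21.5 CPM. Retinal ganglion cells went from 42.6 and 42.3 to 13.2 CPM, and rods from 211 and 92.1 to 6.10 CPM.

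The direction of the difference was also read in each library for rows called in the other 2. Of 186 rows called higher without P8a, 145 (78.0%) were higher in Müller glia of P8a, and of 203 called lower, 176 (86.7%) were lower, against 51.5% and 48.4% of all rows tested. For P12a the counts were 81 of 84 higher (96.4%) and 55 of 57 lower (96.5%), against 53.4% and 46.6% of all rows. For P12b they were 32 of 34 (94.1%) and 19 of 22 (86.4%), against 57.7% and 42.3%. The annotation was made over all libraries together, the one read included, so part of this agreement is built in. The lists differ in length and in the fold changes they admit, so their shares are not comparable between libraries.

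The same rows, summed in each cell of the library that had not chosen them, show how far single cells were separated. In P8a the median Müller glial cell held 7.31% of its UMIs in the higher rows and the median late-stage primary RPC 5.65%. In P12a the medians were 4.88% and 2.75%, and in P12b 2.60% and 1.42%, over fewer rows. Of late-stage primary RPCs, 35 of 332 (10.5%) reached the glial median in P8a, 0 of 81 in P12a and 1 of 69 in P12b, each on its own list of rows, so that the overlap cannot be ranked between libraries. Each cell was also set against the mean profiles of the 9 types in the other libraries, over all rows tested. The annotation came from clusters of these same cells over all libraries, and the cell's own library took part in the filter on rows. Part of the agreement with the annotation is therefore built in. Of Müller glia, 85.1% in P8a, 93.7% in P12a and 69.7% in P12b were nearest to Müller glia, and all the rest were nearest to late-stage primary RPCs. Of late-stage primary RPCs, 81.0%, 85.2% and 95.7% were nearest to their own type and 18.7%, 13.6% and 1.45% to Müller glia. No cell of either type was nearest to a differentiated neuron or photoreceptor precursor, and 4 late-stage primary RPCs were nearest to late-stage neurogenic RPCs.

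**Figure D5:**
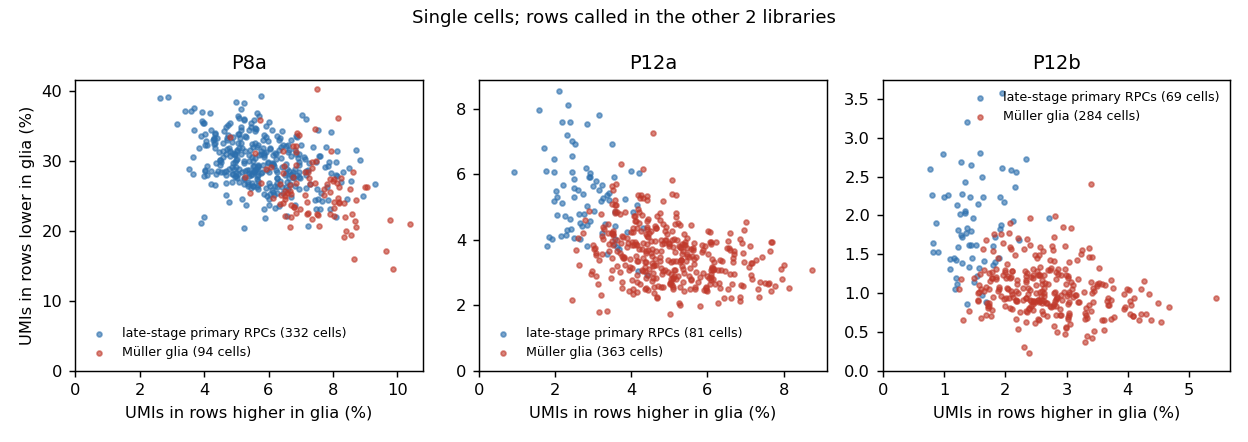
Share of each cell's UMIs in rows higher in Müller glia (horizontal axis, percent) and in rows lower in Müller glia (vertical axis, percent), with rows called in the 2 libraries other than the one shown; each point is 1 cell, and the axes differ between panels because the number of rows does. Late-stage primary RPCs (blue) lie to the upper left of Müller glia (red), and the types overlap in all 3 panels.

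Few rows were seen in one type only. Over the pooled sums of the 3 libraries, 7 rows with at least 20 UMIs in Müller glia had none in late-stage primary RPCs, the highest of them with 30 UMIs, and 1 row had 22 UMIs in late-stage primary RPCs and none in Müller glia. The pooled glia held 2905779 UMIs and the pooled progenitors 1457306.

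Whether the difference between the types changed from P8 to P12 was tested as an interaction. Of 6889 rows, 37 (0.537%) changed at an adjusted p below 0.05 (edgeR quasi-likelihood test), 22 toward Müller glia at P12 (0.319%) and 15 toward late-stage primary RPCs (0.218%), and 503 rows had an unadjusted p below 0.05. With 1 library at P8 and 1 residual degree of freedom, age and library cannot be told apart in this test. Row 27128 was among the 37 rows and was also called over the 3 libraries. Its log2 ratio was −1.82 in P8a, −3.39 in P12a and −3.16 in P12b, a change of −1.47 in the fit. The interaction was not fitted with a robust prior, with which row 27128 was not called over the 3 libraries. The glial level was similar at both days and the progenitor level was higher in both P12 libraries. Of the 37 rows, 18 were also among the 360.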

How the data were processed

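The authors made 10x 3′ libraries from 13LGS retina, processed the reads with Cell Ranger 3.1.0 on the assembly HiC_Itri_2, joined the libraries, and clustered and annotated the cells in Seurat 4.0.4. Neither the filters on cells nor any removal of doublets is stated in the study's methods. The deposited values are raw UMI counts per matrix row and cell (34181 rows), used with the deposited cell table. The 3 embedding coordinates of that table were not used, and 30265 gene names could not be paired with rows, so planned marker lists were not applied. P1 (6920 cells) had more suffixes than samples and was left out. Which of the letters a and b is which replicate number in the labels is not given.

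All deposited cells of a type were kept, and their UMIs were summed per library. Sums were filtered (filterByExpr), scaled by TMM (factors 0.925 to 1.06) and tested in edgeR 4.0.16 (R 4.3.3; glmQLFit, glmQLFTest) with library and type as terms, in place of the study's tests over single cells. An SE is the log2 fold change over the square root of F. The main test was checked on simulated counts in which rows of at least 50 CPM were changed. It recovered 81 of 100 rows changed 2-fold and 100 of 100 changed 4-fold, and 4 of 185 calls were false. The simulation gave all rows the same spread, so it does not cover rows of unusual spread between libraries. The fit of the other libraries, the readings of rows called without a library, the shares of UMIs and the nearest profiles were added after the data were seen. Both types come from the same libraries, which is where the pairing by library comes from. Rows were named if called, at 50 CPM or more in the higher type, in the same direction in all libraries and without overlap, taking the 2 with the largest rise and the 2 with the largest fall. For the change from P8 to P12, 1 row per direction was taken without the overlap condition, and the same direction then means that both P12 libraries moved the same way from P8a. The 4 rows and the sets of called rows were chosen with earlier results of these data known, as were the comparison and its tests. DESeq2 1.42.0, limma 3.58.1 and the other alternatives are given in the closing section.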

Additional observations from a re-analysis of the deposited data

Results flagged for a closer look

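The difference between Müller glia and late-stage primary RPCs was not the same in P8a as in the P12 libraries in 37 rows by the interaction test, in which P8 is 1 library, so that age and library cannot be told apart. In 19 of them the difference had opposite signs in P8a and both P12 libraries. The rows named here had the largest interaction in each direction among called rows that reached 50 CPM in the mean of one type and whose difference moved the same way from P8a to both P12 libraries; called rows outside these limits had larger values. Toward Müller glia this was row 8337. It had 10.5 CPM in Müller glia of P8a (3 UMIs), 44.3 in P12a (46 UMIs) and 63.8 in P12b (101 UMIs), and 67.8, 30.3 and 60.9 CPM in late-stage primary RPCs (62, 6 and 21 UMIs). The glial sum of P8a was the lowest of the 6 and the progenitor sum of P12a the next, both from few UMIs, and the log2 interaction was 2.82 (SE 0.73, edgeR adjusted p = 0.0291). Toward the progenitors it was row 27044, with 130, 109 and 48.6 CPM in Müller glia and 27.3, 177 and 49.3 CPM in late-stage primary RPCs. The types differed in opposite directions in P8a and P12a and hardly in P12b, and the interaction was −2.71 (SE 0.46, edgeR adjusted p = 2.8e-06). In neither row did the types differ over the 3 libraries together (edgeR adjusted p = 0.463 and 0.594). Row 27044 had at most 9.76 CPM on average in any other annotated type, whereas row 8337 had 24.7 to 61.1 CPM in all of them.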

How the results depend on the processing

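The count of 360 rows was within 1.5 times under scaling by RLE factors (355), a minimum of 10 CPM (353), removal of the 56 cells above 2 times the median UMIs of their library and type (288), limma-voom (411) and a robust edgeR prior (361), the last 2 added after the data were seen. It was 162 without a filter on low counts, 214 with at least 5 cells (which adds P17), 121 with all sums thinned to the smallest, and 75 in DESeq2, which gave an adjusted p to 746 rows. All 75 were among the 360, of which 157 had one. Leaving out 1 library gave 56 to 389. Without the block that pairs the sums of a library, 2 rows were called, both lower in Müller glia, with 284 at an unadjusted p below 0.05. The share of higher rows among the calls was 46.7%, 67.3% with P17, 60.5% without the filter, 59.6% and 60.7% without P12a and P12b, and 37.5% with limma-voom. The interaction count was 34 with RLE factors and with a minimum of 10 CPM, and 15 without cells of high UMI count, where row 8337 had an adjusted p of 0.182. It could not be tested with a library left out. In 48 of 53 alternative values the named rows kept direction and call, in 5 they lost the call and in 0 the sign: without the block, the adjusted p was 0.121 for row 14673, 0.123 for row 28298 and 0.0913 for row 27526. Rows 14673 and 27526 could not be tested in thinned sums, and 3 named rows had no adjusted p in DESeq2. Differences in UMIs and detected rows per cell stayed above 0 in all alternatives, with 5.17 rows at 500 UMIs. The causes were not tested.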

Other observations

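The 7 late-stage primary RPCs at P17 were too few for the comparison. Their sum of 23054 UMIs held 4.17% in the 168 rows higher in Müller glia (95% Wilson interval 3.92% to 4.44%) and 20.9% in the 192 rows lower in Müller glia (20.4% to 21.5%). Row 27128 stood at 12015 CPM in them (277 UMIs), row 27526 at 304 CPM (7 UMIs) and row 14673 at 43.4 CPM (1 UMI), and row 28298 had 0 UMIs. The intervals cover counting error only.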
